A study of Rattus norvegicus with 9 samples.

Results

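The Hox genes and their relatives among the homeobox genes were followed through cultured rat heart fibroblasts of 3 ages. The set was defined by name alone: every gene of the deposited count table that belongs to the Hoxa, Hoxb, Hoxc or Hoxd clusters or to the Meox, Pbx, Prrx, Irx, Pitx, Msx, Dlx or Lhx families, or to the sine oculis family (Six2, Six4 and their relatives). It held 63 of the 17337 genes in the table, 26 of them Hox genes. Of the 63, 28 had enough counts to be tested, 22 had some counts but fell below the count filter, and 13 had no count in any library.

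RNA was sequenced from fibroblast cultures of Sprague Dawley rats at 3 ages, with 3 libraries each: embryonic day 18 (fetal), the first day after birth, labelled P1 (neonatal), and 7 weeks (adult). At every age the cells were freshly isolated and grown to confluence on plastic, in medium with serum and ascorbic acid, and total RNA was extracted with TRIzol. The labels name no sorting step, no genetic change and no drug treatment, and do not say whether animals were pooled or whether the 3 libraries of an age came from separate isolations, so p-values measure the spread between these libraries only. The comparison of ages asks which of these regulators differ between cardiac fibroblasts taken before birth, at birth and in the adult.

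Homeobox genes encode transcription factors that bind DNA through a conserved helical domain. Hox genes lie in 4 clusters, their order along the cluster matches the order in which they are used along the body axis, and connective-tissue cells are known to keep a Hox pattern of their place of origin after they are put in culture. Pbx proteins bind DNA as partners of Hox proteins, while Prrx, Msx, sine oculis, Irx, Meox, Pitx, Dlx and Lhx factors mark mesenchyme, muscle, heart chambers, limb or nerve cells in the embryo.

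The libraries held 13392825 to 22850491 counts. Levels are given as CPM (counts scaled to a common library size, here with TMM factors), listed in the order of replicates 1, 2 and 3, and means are ± SD over n = 3 libraries. Among the 12 fibroblast markers, Col1a1 lay between 11890 and 40025 CPM and Vim between 3364 and 5784 CPM over all libraries. Not every marker was high: Col1a2 did not exceed 0.976 CPM in any library, and Tcf21 lay at 6.91 to 14.4 CPM in fetal libraries. Other cells were present as well. The summed level of 13 cardiomyocyte markers was 10137 to 14235 CPM in fetal, 6532 to 7210 CPM in neonatal and 305 to 319.6 CPM in adult libraries. The summed level of 12 macrophage markers was 14.9 to 72.4 CPM in fetal, 166 to 183 CPM in neonatal and 4437 to 6122 CPM in adult libraries. In bulk RNA, fewer cells of a type and less RNA per cell cannot be told apart.

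Fetal replicate 3 stood apart from the other 2 fetal libraries. The chi-square per degree of freedom over the tested genes was 92.4 and 100.2 between it and fetal replicates 1 and 2, against 4.0 between those 2. Its markers of lung and airway epithelium summed to 249 CPM, against 6.43 and 6.22 CPM, with 7 of 9 markers at more than 2 times both others. Its skeletal muscle markers summed to 151 CPM, against 42.8 and 47.3 CPM. Its fibroblast markers summed to 37323 CPM, against 79314 and 77820 CPM. Results that rest on this library are therefore given with and without it. Adult replicate 1 also stood apart, by less, with chi-square values of 25.8 and 42.9 against adult replicates 2 and 3. The value between those 2 was 6.75, and the neonatal pairs lay at 2.05 to 2.76.

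Most of these genes either had no count or were at their highest in fetal cells. On average at least 1 CPM was reached by 28 of the 63 genes in fetal, 19 in neonatal and 15 in adult cultures. Among the 26 Hox genes the numbers were 7, 2 and 3. Irx1, Lhx2 and Lhx6 reached 1 CPM in fetal cells only through fetal replicate 3, with means of 0.407, 0.495 and 0.311 CPM without it. Dlx5 reached it only without that library, at 1.03 CPM. Of the 28 tested genes, 21 had their highest mean in fetal cells, 2 in neonatal cells and 5 in adult cells. Irx2 was among the 21 only with fetal replicate 3: its fetal mean was 1.40 CPM without it and its adult mean 2.53 CPM. Over all 11337 genes tested in the table, 35.7% were highest in fetal, 22.3% in neonatal and 42.0% in adult cells. The filter bears on these numbers, because 5 of the 28 passed it through 1 age alone and had to differ: Hoxb5, Hoxb7, Hoxb8 and Hoxd13 through fetal cells and Hoxd9 through adult cells.

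**Figure D1:**
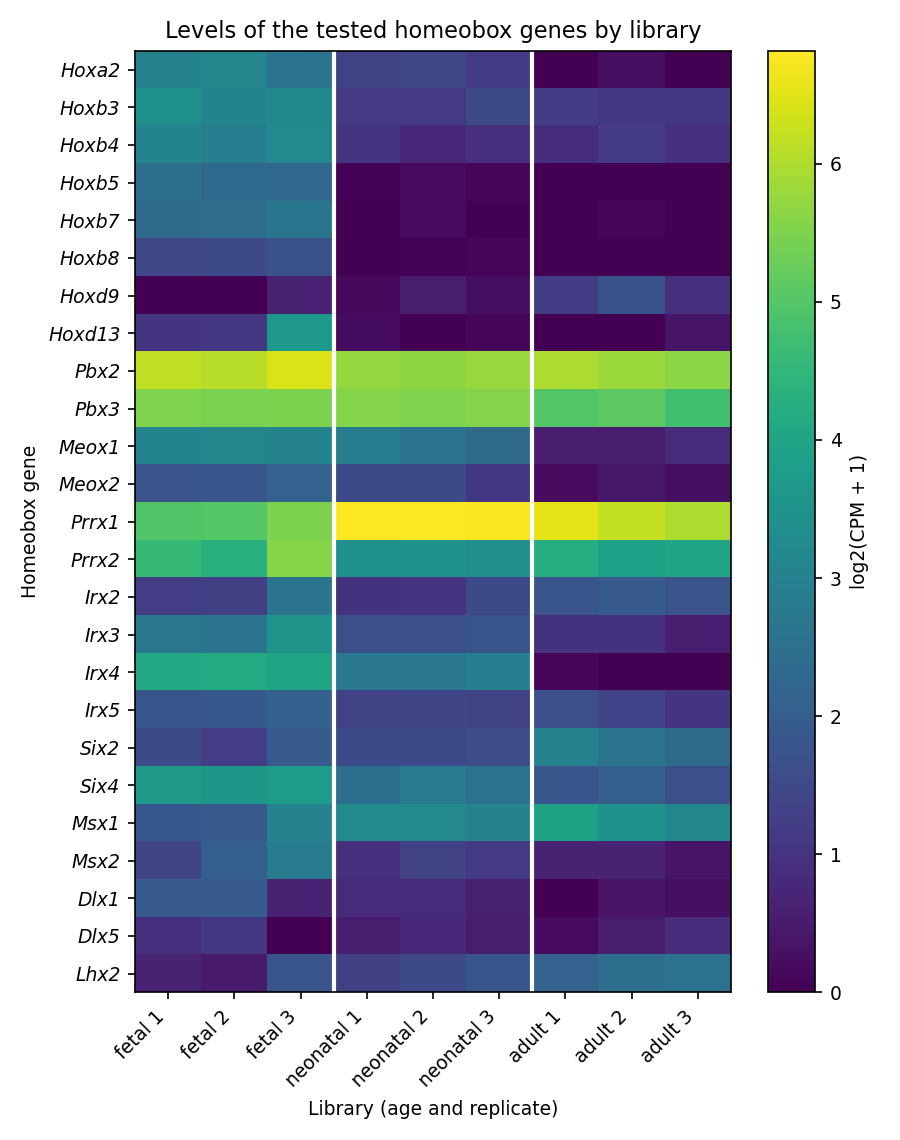
Levels of 25 of the 28 tested homeobox genes (rows) in the 9 libraries (columns, grouped by age), as log2(CPM + 1) on the colour scale. Pbx2, Pbx3 and Prrx1 are bright in every library, while the rows of Hoxb5, Hoxb7 and Hoxb8 are filled in the 3 fetal libraries and nearly empty in the other 6.

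Between fetal and neonatal cells 15 of the 28 tested genes fell and 2 rose. Among the 15 were Hoxa2, Hoxb3, Hoxb4, Hoxb5, Hoxb7, Hoxb8, Hoxd13, Irx3, Irx4, Irx5, Msx2, Pbx2, Prrx2 and Six4, and Prrx1 was among the genes that rose. Of all tested genes in this comparison 18.0% were called lower and 18.3% higher. The median log2 fold change was -0.94 over the 28 genes and -0.01 over all genes. Hoxb5, Hoxb7, Hoxb8 and Hoxd13, among the 15, passed the count filter through fetal cells alone. Their lower neonatal values were built into the choice, and the 15 and the median include them. Scaling by library size alone moved the median of all genes to -0.18 and the share of calls that were higher from 50.4% to 29.0%, and it left 1 of the homeobox genes higher and 18 lower. Without fetal replicate 3 the calls were 5 higher and 15 lower, with Hoxd9, Lhx2 and Msx1 added among the higher genes, Dlx1 and Meox1 added among the lower ones, and Irx5 and Msx2 lost.

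Between fetal and adult cells 20 of the 28 fell and 6 rose, against 35.5% lower and 34.9% higher over all tested genes. Among the 6 were Hoxd9, Lhx2, Msx1, Prrx1 and Six2. Dlx5 and Irx2 did not pass the test. The median log2 fold change was -2.24 over the 28 genes and -0.01 over all genes. Hoxb5, Hoxb7, Hoxb8 and Hoxd13 are among the 20 as well, and Hoxd9 passed the filter through adult cells alone. These directions too were built into the choice. Dlx1, Hoxa2, Irx4, Meox2 and Msx2 passed the filter through fetal and neonatal cells, with no adult library over its cut. The filter thus bears on their lower adult values as well, and on the adult p-values given with these genes below. Without fetal replicate 3 there were 8 higher calls, with Irx2 and Dlx3 added, and 19 lower calls. The filter was run anew without that library and passed 11519 genes, against 11337 with it. Dlx3 was below the filter with all 9 libraries.

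Between neonatal and adult cells 10 fell, 2 rose and 16 did not pass the test, against 31.8% lower and 31.6% higher over all tested genes. Among the 10 were Hoxa2, Hoxb5, Irx3, Irx4, Meox1, Meox2, Pbx3, Prrx1 and Six4, and the 2 were Hoxd9 and Six2. The higher adult value of Hoxd9 was built into the choice by the filter. Hoxa2, Hoxb5, Irx4 and Meox2, among the 10, had no adult library over the cut of the filter. The median log2 fold change was -0.42, or -0.26 over the 26 genes left when pooled count ratios and bounds replace fitted values at very low counts, against -0.01 over all genes. Fetal libraries took no direct part in this comparison, but they share its estimate of spread and its count filter. Without fetal replicate 3 the higher calls were 7, with Dlx3, Irx2, Lhx2 and Prrx2 among those added. Dlx3 was tested only in that fit, where more genes passed the filter. The 3 comparisons share libraries and are not independent of each other.

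**Figure D2:**
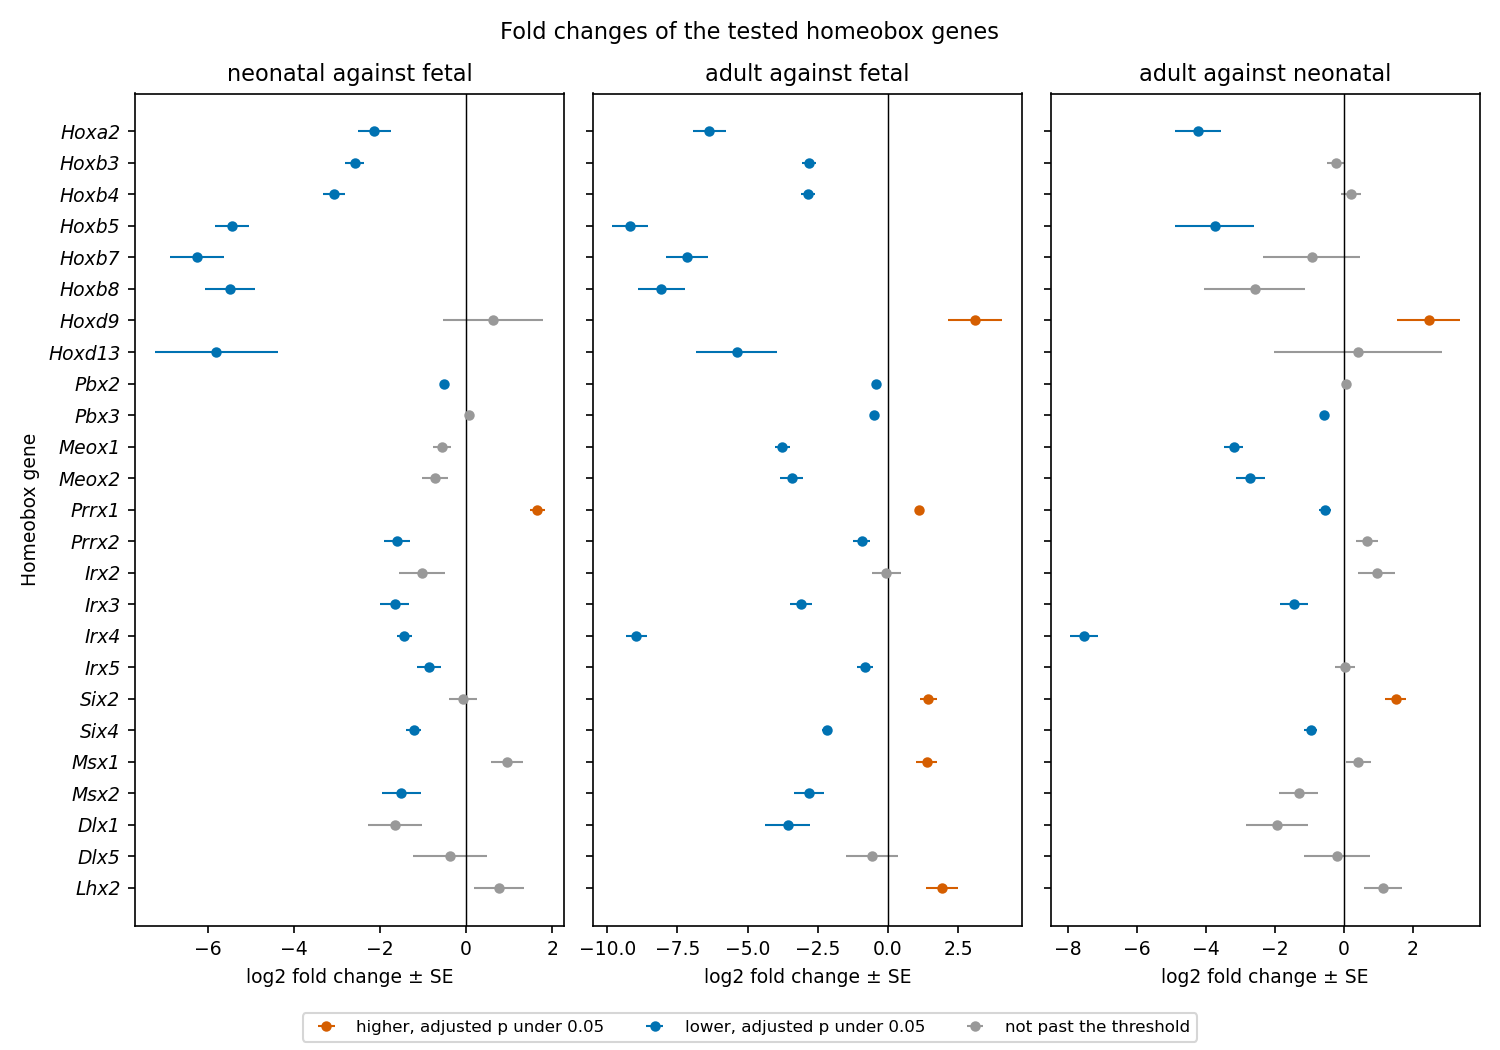
Log2 fold changes ± SE of 25 of the 28 tested homeobox genes for the 3 pairs of ages, coloured by edgeR's call (orange higher, blue lower, grey not past the threshold). Fold changes fitted against ages with almost no counts, such as those of Hoxb5, Hoxb8 and Irx4 in adult cells, depend on the fit and are not measured sizes.

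Of the 7 Hoxb genes counted, 5 could be tested. Hoxb3 and Hoxb4 passed the filter at every age and fell from fetal to neonatal cells, while Hoxb5, Hoxb7 and Hoxb8 passed it through fetal cells alone, so their lower values at other ages were built into the choice and are given as a description. They lie together on chromosome 10, from Hoxb8 to Hoxb3 at chr10:84131495-84195415 of rn6, the build of all gene positions given here, within 63.9 kb. The 2 nearest the anterior end, Hoxb3 and Hoxb4, pattern the hindbrain and pharyngeal region. Hoxb3 stood at 9.72, 7.50 and 8.08 CPM in fetal, 1.21, 1.21 and 1.81 CPM in neonatal and 1.30, 1.16 and 1.12 CPM in adult libraries. Every fetal library was above every later one, and neonatal and adult libraries overlapped. The log2 fold change of Hoxb3 was -2.59 ± 0.22 (SE) from fetal to neonatal cells (edgeR adjusted p = 6.82e-05) and -0.23 ± 0.25 from neonatal to adult cells (edgeR adjusted p = 0.49).

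Hoxb4 stood at 7.4, 6.61 and 8.24 CPM in fetal, 1.05, 0.697 and 0.906 CPM in neonatal and 0.842, 1.30 and 0.899 CPM in adult libraries. It repeated the pattern of Hoxb3, with a log2 fold change of -3.07 ± 0.25 at the first step (edgeR adjusted p = 4.93e-05) and 0.21 ± 0.28 at the second (edgeR adjusted p = 0.534). Both genes kept a low level in all 6 libraries taken after birth.

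The more posterior Hoxb5, Hoxb7 and Hoxb8, which in the embryo are used along the trunk, nearly vanished. Hoxb5, also known from lung and gut mesenchyme, had 4.70, 4.06 and 3.83 CPM in fetal libraries. It had 1, 3 and 1 counts in the neonatal and no count in the adult libraries. From fetal to neonatal cells its log2 fold change was -5.43 ± 0.40. In adult cells it was at least 56.1-fold lower than in fetal cells, taking 3 counts over the 3 adult libraries as the floor. The further step from neonatal to adult cells passed the test (edgeR adjusted p = 0.0321), but on 5 counts against 0, a bound of 1.22-fold, and it was lost without neonatal replicate 2 or without any 1 adult library (edgeR adjusted p from 0.0713 to 0.119), with DESeq2 (adjusted p = 0.0757) and with the replicate block (edgeR adjusted p = 0.0618).

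Hoxb7 had 4.16, 4.37 and 5.31 CPM in fetal libraries, 3 counts in neonatal replicate 2 and 1 count in adult replicate 2. Pooled over libraries the fetal level was 84.5 times the neonatal one (95% counting interval 28.6 to 412) and 185 times the adult one (33.0 to 7339.85). Hoxb8 had 1.73, 1.85 and 2.23 CPM in fetal libraries, 2 counts over the neonatal and none over the adult libraries. Its fetal level was 53.3 times the neonatal one (14.4 to 445) and at least 25.9-fold above the adult one. For these 3 genes the 3 fetal libraries were alike, with ratios of fetal replicate 3 to the mean of the others of 0.874, 1.25 and 1.25. Of the other 2 Hoxb genes, Hoxb9 had 8 fetal counts and 1 adult count, and Hoxb13 had none.

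Summed per kilobase of exon, the Hoxb genes averaged 17.4 CPM per kb in fetal cells, 1.39 in neonatal cells and 1.26 in adult cells. For Hox genes of paralogue groups 1 to 4 the means were 11.4, 1.85 and 1.30 CPM per kb at the 3 ages. For groups 5 to 8 they were 9.02, 0.156 and 0.0198 CPM per kb. Groups 9 to 13 were at 0.69, 0.632 and 5.97 CPM per kb in the 3 fetal libraries, so fetal replicate 3 set their mean. The summed middle groups were thus near 0 after birth in these libraries, and their fetal sum came mainly from Hoxb5, Hoxb7 and Hoxb8. In adult cells the sum of groups 1 to 4 was mostly Hoxb3 and Hoxb4, at 0.641 and 0.573 CPM per kb. Hoxa2, Hoxc4 and Hoxd3, of the same groups, had 3, 1 and 0 adult counts. The sums cover only Hox genes in the count table, 7 in groups 1 to 4 and 6 in groups 5 to 8. The T-box genes Tbx4 and Tbx5, from a list of 8 lung mesenchyme markers of which 6 are in the table, were also higher in all 3 fetal libraries. Tbx4 stood at 39.6, 38.5 and 53.3 CPM in fetal cells, at most 0.777 CPM in neonatal and at most 5.05 CPM in adult cells. The summed list did not move that way, with 66.3 to 81.4 CPM in fetal, 95.7 to 100.1 CPM in neonatal and 125 to 247 CPM in adult libraries. Most of the neonatal and adult sums was Tcf21, which is also among the fibroblast markers. Tcf21 stood at 6.91 to 14.4 CPM in fetal, 84.7 to 88.5 CPM in neonatal and 108 to 226 CPM in adult libraries. In adult cells 2 of the 6 markers lay above the fetal range, Tcf21 and Fgf10, and 2 below it, Tbx4 and Tbx5. The part of lung mesenchyme cells in the Hoxb result was not tested.

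**Figure D3:**
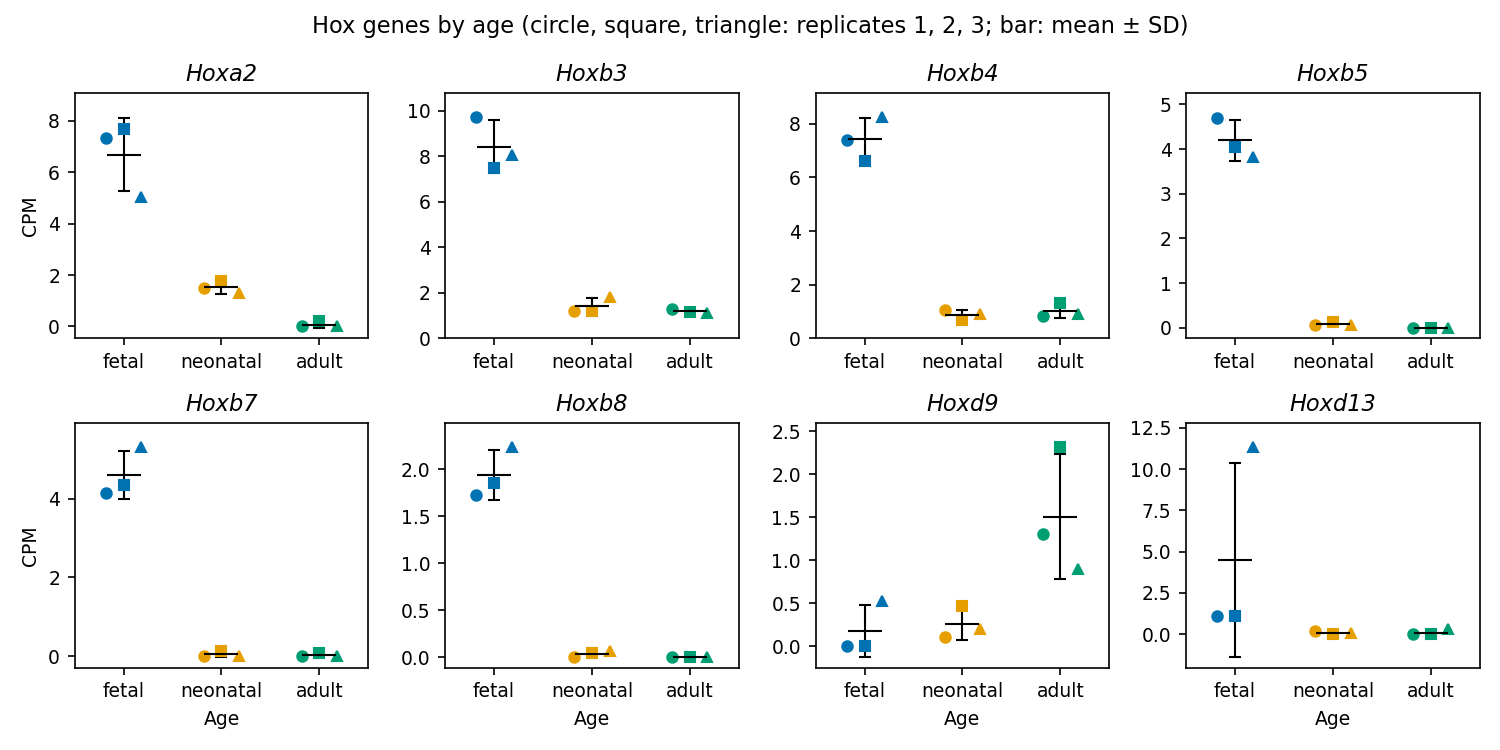
CPM of the 8 tested Hox genes by age; points are libraries (circle, square and triangle for replicates 1, 2 and 3) and bars are mean ± SD of n = 3. The fetal points of the Hoxb genes lie together and above all later points, Hoxd13 has 1 fetal point at 11.3 CPM and 2 near 1.1 CPM, and Hoxd9 alone is highest in adult cells.

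Hoxa2, the most anterior Hox gene with counts and a regulator of branchial arch and hindbrain identity, fell at both steps. It stood at 7.35, 7.67 and 5.05 CPM in fetal and 1.49, 1.77 and 1.29 CPM in neonatal libraries, and adult replicate 2 alone had counts in adult cells, 3 in all. The log2 fold change was -2.13 ± 0.38 from fetal to neonatal cells (edgeR adjusted p = 0.00276). The neonatal level was 20.7 times the adult one (6.84 to 102), with edgeR adjusted p = 0.000438. The annotation of the count table lists Hoxa2 at 2 places, at chr4:82131329-82133605 and on an unplaced chromosome 4 sequence, and lists Hoxa6, Hoxa9 and Hoxa11 more than once as well. Reads that map to several places are left out by the counting program's default, so the absence of counts for Hoxa6, Hoxa9 and Hoxa11 says only that they are listed at 0. The CPM values of Hoxa2, and the sum over groups 1 to 4 that holds it, may be too low for the same reason. The length of Hoxa2 in the table, 3268 bases, likewise covers both copies. Hoxa13 is listed only on the unplaced sequence, so its absence of counts too says only that it is listed at 0.

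Of the tested Hox genes 1, in the Hoxd cluster, was highest in adult cells. Hoxd9, at chr3:61620192-61622360, had no count in fetal replicates 1 and 2 and 0.531 CPM in fetal replicate 3. It stood at 0.110, 0.465 and 0.194 CPM in neonatal and 1.30, 2.31 and 0.899 CPM in adult libraries. Every adult library lay above every other library. The log2 fold change was 3.10 ± 0.97 from fetal to adult cells (edgeR adjusted p = 0.0172) and 2.47 ± 0.92 from neonatal to adult cells (edgeR adjusted p = 0.0398). Without fetal replicate 3 fetal cells had no Hoxd9 count, and the calls against them were higher in adult cells (edgeR adjusted p = 0.000253) and in neonatal cells (edgeR adjusted p = 0.0353, against 0.696 with that library). Hoxd9 passed the count filter through adult cells alone, so it had to differ from some other age, and the calls rest on few counts, 61 over the adult libraries. The call from fetal to adult cells was lost without adult replicate 2 (edgeR adjusted p = 0.0723), and that from neonatal to adult cells was lost without any 1 neonatal library or without adult replicate 1 or 2 (edgeR adjusted p from 0.0546 to 0.148), with the replicate block (edgeR adjusted p = 0.0546) and without the count filter (edgeR adjusted p = 0.0688). The 12 macrophage markers were also higher in adult cells, 12 of 12 in each comparison with adult cells, and their part in the rise of Hoxd9 was not tested.

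Hoxd13, the most posterior Hoxd gene and a marker of distal limb and urogenital mesenchyme, lies 26.5 kb from Hoxd9. It had 1.08, 1.10 and 11.3 CPM in fetal libraries, 4 counts over the neonatal and 4 over the adult libraries. It too passed the filter through fetal cells alone. Of its 258 fetal counts 213 came from fetal replicate 3. The fall from fetal to neonatal cells passed the test with that library (log2 fold change -5.80 ± 1.43, edgeR adjusted p = 0.0142) and without it (-3.78, edgeR adjusted p = 0.00377). The fitted size thus rested in part on that library. The filter had fixed the direction, so these tests cannot support it. The call was lost without neonatal replicate 2 or 3 (edgeR adjusted p = 0.0596 and 0.0548).

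Promoter sequences were at hand for 36 of the 63 genes, from RefSeq on assembly GRCr8, and for 2 of the tested Hox genes with opposite changes they are shown as the 250 bases before the start, 5′ to 3′. Hoxa2 is at chr4:82595693-82595942 on the minus strand and Hoxd9 at chr3:80007756-80008005 on the plus strand. Capitals mark the letters TGATNNAT, a form of the site bound by Pbx and Hox proteins together, searched on both strands.
Hoxa2: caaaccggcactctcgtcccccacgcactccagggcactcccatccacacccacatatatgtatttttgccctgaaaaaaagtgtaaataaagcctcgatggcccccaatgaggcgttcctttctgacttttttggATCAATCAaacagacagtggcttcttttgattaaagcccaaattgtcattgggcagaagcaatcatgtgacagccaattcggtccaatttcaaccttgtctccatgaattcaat
Hoxd9: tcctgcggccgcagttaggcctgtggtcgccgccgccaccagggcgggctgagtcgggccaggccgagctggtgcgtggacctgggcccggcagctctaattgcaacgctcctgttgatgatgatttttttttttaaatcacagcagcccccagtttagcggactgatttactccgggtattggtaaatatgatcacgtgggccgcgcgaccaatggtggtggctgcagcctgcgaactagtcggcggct
The Hoxa2 window held 1 match, beginning at position -114 from the start, and the Hoxd9 window none. In the RefSeq set of 33469 promoters 7.96% held at least 1 match, and Hoxa2 was the 1 match among the 36. The Hoxa2 window had 6 CpG pairs and that of Hoxd9 20, where the median was 19 over the 36 genes and 5 over all promoters. A match describes letters and not a bound site.

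Pbx genes code for the DNA-binding partners of Hox proteins. Pbx2 stood at 70.4, 66.5 and 84.7 CPM in fetal, 52.2, 50.7 and 53.3 CPM in neonatal and 61.8, 54.5 and 48.5 CPM in adult libraries. It fell from fetal to neonatal cells (log2 fold change -0.50 ± 0.11, edgeR adjusted p = 0.00765), and neonatal and adult libraries overlapped. Pbx3 stood at 44.0, 42.2 and 43.7 CPM in fetal, 45.7, 44.4 and 46.3 CPM in neonatal and 30.8, 34.2 and 26.0 CPM in adult libraries. Its fall came between neonatal and adult cells (log2 fold change -0.58 ± 0.10, edgeR adjusted p = 0.000555), while the first step gave 0.07 ± 0.09 (edgeR adjusted p = 0.585). Pbx4 was low at every age, with means of 0.32 to 0.41 CPM, and was not tested.

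Per kilobase of exon, Pbx2 (25.8 ± 3.36 CPM per kb), Prrx1 (25.3 ± 5.25) and Prrx2 (24.1 ± 12.5) did not differ beyond their spread in fetal cells. Prrx2 owed its mean to fetal replicate 3, with 18.3, 15.5 and 38.3 CPM per kb in the 3 fetal libraries, against 19.0, 18.2 and 18.8 for Pbx3. In replicates 1 and 2 it was thus below Pbx3. In neonatal cells Prrx1 had 79.7 ± 2.35 CPM per kb, ahead of Pbx3 at 19.6 ± 0.42 and Pbx2 at 18.2 ± 0.462. In adult cells Prrx1 had 54.8 ± 11.4 CPM per kb, ahead of Pbx2 at 19.2 ± 2.33. Among Hox genes, Hoxb3 with 4.53 and Hoxb4 with 4.19 CPM per kb in fetal cells did not differ beyond their spread, and Hoxb4 was the higher in fetal replicate 3. The per-kilobase level of Hoxa2 was not compared, for the reason given with that gene.

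The 2 Prrx genes, which encode paired-related factors of embryonic mesenchyme and of limb and craniofacial connective tissue, moved in opposite directions from fetal to later cells. Prrx1, at chr13:81147038-81214822, stood at 30.1, 31.2 and 43.1 CPM in fetal, 112, 111 and 106 CPM in neonatal and 92.5, 72 and 61.8 CPM in adult libraries. The 3 ages did not overlap, with neonatal cells highest. It rose from fetal to neonatal cells by a log2 fold change of 1.66 ± 0.17 (edgeR adjusted p = 0.000178). It then fell by 0.54 ± 0.17 on the log2 scale from neonatal to adult cells (edgeR adjusted p = 0.0177), a call lost without adult replicate 2 or 3 (edgeR adjusted p = 0.0577 and 0.06).

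Prrx2, at chr3:9681871-9718051, stood at 22.5, 19.0 and 47.1 CPM in fetal, 9.63, 9.90 and 9.58 CPM in neonatal and 17.5, 13.9 and 14.8 CPM in adult libraries. Its lowest fetal library was above its highest adult one, and neonatal cells were lowest. From fetal to neonatal cells the log2 fold change was -1.60 ± 0.31 (edgeR adjusted p = 0.00452), and -1.09 without fetal replicate 3 (edgeR adjusted p = 3.85e-05). From fetal to adult cells it was -0.94 ± 0.30 (edgeR adjusted p = 0.0207). That value was -0.43 without fetal replicate 3 (edgeR adjusted p = 0.00646), and the call was lost without adult replicate 2 or 3 (edgeR adjusted p = 0.0665 and 0.0583).

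The promoters of this pair are shown because the genes are paralogues with opposite changes; both are 5′ to 3′ from RefSeq on GRCr8, Prrx1 at chr13:78204074-78204323 on the minus strand and Prrx2 at chr3:34530081-34530330 on the plus strand.
Prrx1: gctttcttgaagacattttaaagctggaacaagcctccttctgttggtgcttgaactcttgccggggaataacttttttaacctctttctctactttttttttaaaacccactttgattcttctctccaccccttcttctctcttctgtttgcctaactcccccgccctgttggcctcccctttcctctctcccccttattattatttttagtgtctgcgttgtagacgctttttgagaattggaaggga
Prrx2: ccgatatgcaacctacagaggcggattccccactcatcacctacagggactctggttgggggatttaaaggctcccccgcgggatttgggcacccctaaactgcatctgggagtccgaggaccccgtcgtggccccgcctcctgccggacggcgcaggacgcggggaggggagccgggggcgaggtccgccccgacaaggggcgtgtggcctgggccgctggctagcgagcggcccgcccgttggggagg
The Prrx1 window had 4 CpG pairs and 43.2% G and C, and that of Prrx2 had 23 CpG pairs and 70% G and C. Over all promoters the medians were 5 CpG pairs and 51.2%, and over the 36 homeobox genes 19 and 65.2%. Neither window held TGATNNAT.

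Both Meox genes, regulators of somite-derived mesoderm, were lower in adult cells, where each library still had counts of both. Meox1 stood at 7.51, 7.63 and 7.33 CPM in fetal, 6.27, 4.83 and 4.08 CPM in neonatal and 0.459, 0.433 and 0.749 CPM in adult libraries. The 3 ages did not overlap, yet the first step did not pass the test (log2 fold change -0.56 ± 0.21, edgeR adjusted p = 0.059). The second did, with -3.20 ± 0.27 (edgeR adjusted p = 9.53e-06). Meox2 stood at 2.32, 2.51 and 3.40 CPM in fetal, 1.87, 1.91 and 1.17 CPM in neonatal and 0.153, 0.361 and 0.225 CPM in adult libraries. It fell by 2.71 ± 0.41 on the log2 scale from neonatal to adult cells (edgeR adjusted p = 0.000343).

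Irx4, the Iroquois gene known as a marker of ventricular heart muscle, nearly vanished from adult cells. It stood at 16.5, 16.8 and 14.7 CPM in fetal and 5.67, 5.62 and 6.54 CPM in neonatal libraries, and it had 1 count over the 3 adult libraries. The log2 fold change was -1.43 ± 0.18 from fetal to neonatal cells (edgeR adjusted p = 0.000518). The neonatal level was 237 times the adult one (42.3 to 9403) and the fetal level 647 times (116 to 25571), with edgeR adjusted p = 6.52e-07 and 7.38e-08. The cardiomyocyte markers moved the same way, 11 of 13 below the fetal range in neonatal cells and 13 of 13 below it in adult cells. In adult libraries the heart muscle genes Myl2 and Csrp3 were at or near 0, and Tnnt2, at 303 to 316 CPM, made up nearly the whole sum. The part of heart muscle cells in the fall of Irx4 was not tested.

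The Iroquois genes lie in 2 groups, Irx4, Irx2 and Irx1 on chromosome 1 and Irx6, Irx3 and Irx5 on chromosome 19. They act in the patterning of heart, limb and nerve tissue. Irx3, which in the heart acts in the ventricular conduction system, stood at 5.62, 5.11 and 10.6 CPM in fetal, 2.15, 2.18 and 2.40 CPM in neonatal and 0.995, 1.01 and 0.449 CPM in adult libraries. The ages did not overlap, and both steps passed the test, with log2 fold changes of -1.66 ± 0.33 and -1.44 ± 0.40 (edgeR adjusted p = 0.00509 and 0.0106). The first step was -1.26 without fetal replicate 3 (edgeR adjusted p = 0.00137). Irx5, 577 kb from Irx3, stood at 2.54, 2.65 and 3.35 CPM in fetal, 1.54, 1.63 and 1.49 CPM in neonatal and 2.14, 1.59 and 1.05 CPM in adult libraries. Its fall from fetal to neonatal cells was -0.87 ± 0.28 on the log2 scale (edgeR adjusted p = 0.0362). Leaving out any 1 fetal or neonatal library or adult replicate 2 lost the call (edgeR adjusted p from 0.0522 to 0.119). So did the replicate block (edgeR adjusted p = 0.066) and fitting without the count filter (edgeR adjusted p = 0.0517). The fall of Irx5 from fetal to adult cells was -0.83 ± 0.28 (edgeR adjusted p = 0.0248). That call was lost without adult replicate 2 or 3 (edgeR adjusted p = 0.0629 and 0.0758) and with only the 2 ages compared (edgeR adjusted p = 0.0617). Irx2, at means of 2.65 ± 2.17, 1.31 ± 0.491 and 2.53 ± 0.257 CPM, passed no test, and its direction from fetal to adult cells turned without fetal replicate 3, from -0.06 (edgeR adjusted p = 0.921) to 0.84 (edgeR adjusted p = 0.0269).

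Six4, a factor of muscle progenitors at chr6:95984868-95998529, fell at both steps. Six4 stood at 11.6, 11.2 and 12.5 CPM in fetal, 4.51, 5.86 and 4.79 CPM in neonatal and 2.45, 3.18 and 2.17 CPM in adult libraries. The 3 ages did not overlap, with log2 fold changes of -1.21 ± 0.17 and -0.96 ± 0.19 (edgeR adjusted p = 0.00094 and 0.00168). Six2, a factor of kidney and craniofacial mesenchyme, stood at 1.84, 1.37 and 2.87 CPM in fetal, 1.87, 1.81 and 2.07 CPM in neonatal and 7.04, 5.20 and 4.12 CPM in adult libraries. It rose only at the second step, by a log2 fold change of 1.51 ± 0.31 (edgeR adjusted p = 0.0022), against -0.07 ± 0.32 at the first (edgeR adjusted p = 0.877). Six3 had 3 counts in all and Six6 none.

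**Figure D4:**
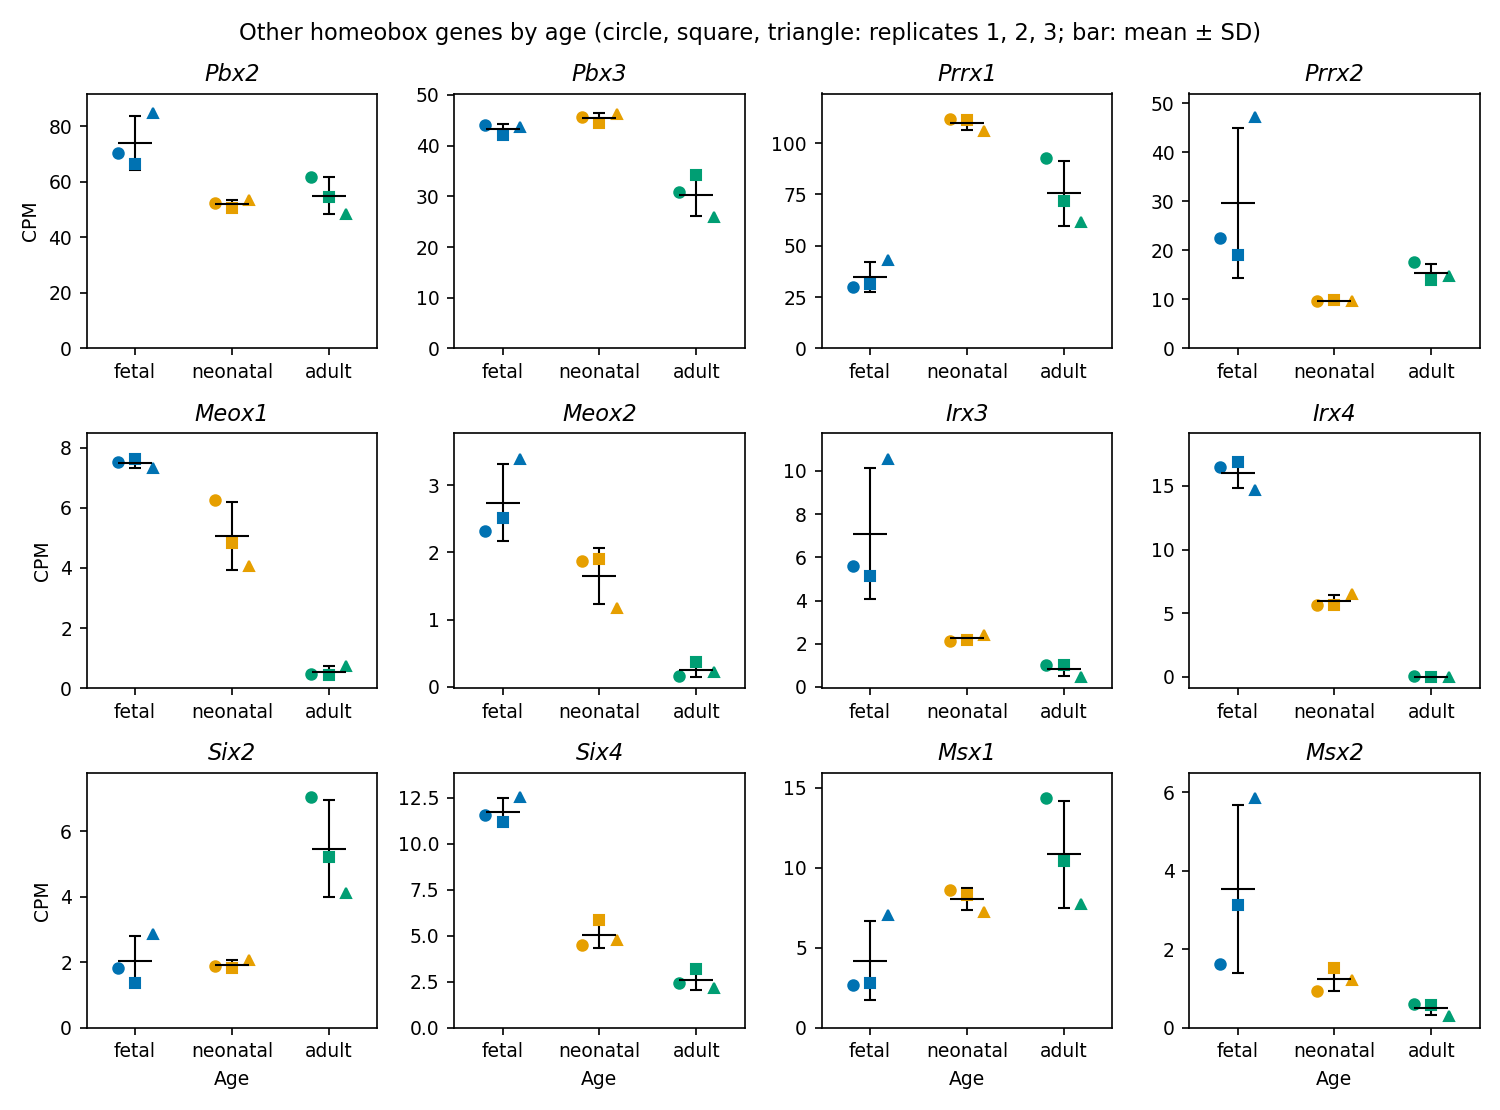
CPM of 12 homeobox genes outside the Hox clusters by age; points are libraries (circle, square and triangle for replicates 1, 2 and 3) and bars are mean ± SD of n = 3. Six4, Irx3 and Irx4 step down with age, and in Prrx2, Msx1 and Msx2 the triangle of fetal replicate 3 lies well above the other 2 fetal points.

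Msx1 and Msx2, targets of BMP signalling in mesenchyme, also differed in direction. Msx1 stood at 2.70, 2.82 and 7.07 CPM in fetal, 8.59, 8.27 and 7.25 CPM in neonatal and 14.4, 10.4 and 7.71 CPM in adult libraries. Its log2 fold change from fetal to adult cells was 1.37 ± 0.37 (edgeR adjusted p = 0.00876), and 1.96 without fetal replicate 3 (edgeR adjusted p = 2.75e-05). From fetal to neonatal cells it was 0.94 ± 0.37 with that library (edgeR adjusted p = 0.0755) and 1.54 without it (edgeR adjusted p = 0.000612).

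Msx2 stood at 1.62, 3.13 and 5.84 CPM in fetal, 0.936, 1.53 and 1.23 CPM in neonatal and 0.612, 0.578 and 0.300 CPM in adult libraries. The 3 ages did not overlap. It fell by 2.81 ± 0.53 on the log2 scale from fetal to adult cells (edgeR adjusted p = 0.00106). The fall at the first step, -1.51 ± 0.46 (edgeR adjusted p = 0.0304), was lost without fetal replicate 3 (-0.95, edgeR adjusted p = 0.051) or without any 1 neonatal library (edgeR adjusted p from 0.0658 to 0.111). Msx3 had no counts.

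Dlx1, a gene of forebrain and branchial arch mesenchyme, stood at 2.92, 2.91 and 0.584 CPM in fetal, 0.771, 0.744 and 0.518 CPM in neonatal and 0, 0.289 and 0.225 CPM in adult libraries. It fell from fetal to adult cells (log2 fold change -3.58 ± 0.81, edgeR adjusted p = 0.00312), and the first step gave -1.64 ± 0.63 with fetal replicate 3 (edgeR adjusted p = 0.0682) and -2.07 without it (edgeR adjusted p = 0.00103).

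Lhx2, a LIM homeobox gene of limb, eye and forebrain, was the 1 tested Lhx gene and rose. It stood at 0.594, 0.397 and 2.44 CPM in fetal, 1.43, 1.86 and 2.52 CPM in neonatal and 3.44, 4.48 and 4.87 CPM in adult libraries. Every adult library lay above every other. The log2 fold change from fetal to adult cells was 1.91 ± 0.57 (edgeR adjusted p = 0.0133), and 3.11 without fetal replicate 3 (edgeR adjusted p = 1.16e-05). From fetal to neonatal cells it was 0.77 ± 0.58 with that library (edgeR adjusted p = 0.321) and 1.96 without it (edgeR adjusted p = 0.00183). Dlx5 stayed below 1.2 CPM in every library and passed no test.

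Fetal replicate 3 carried more of several of these RNAs than the other 2 fetal libraries. In 10 of the 28 tested genes (35.7%) it had at least 1.5 times their mean, against 11.6% of all tested genes. Among the 10 were Hoxd13, Hoxd9, Irx2, Irx3, Lhx2, Msx1, Msx2, Prrx2 and Six2. Below the filter, 6 genes named after their values were seen came mostly from this library. Hoxd10, 20.4 kb from Hoxd13, had all of its 37 counts there. Lhx6 had 56 of its 69 fetal counts there, Irx1 52 of 68, Hoxc8 22 of 30, Lhx9 16 of 17 and Pitx1 15 of 16. The lung epithelial, skeletal muscle and macrophage markers were higher in the same library, and their part in these values was not tested.

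**Figure D5:**
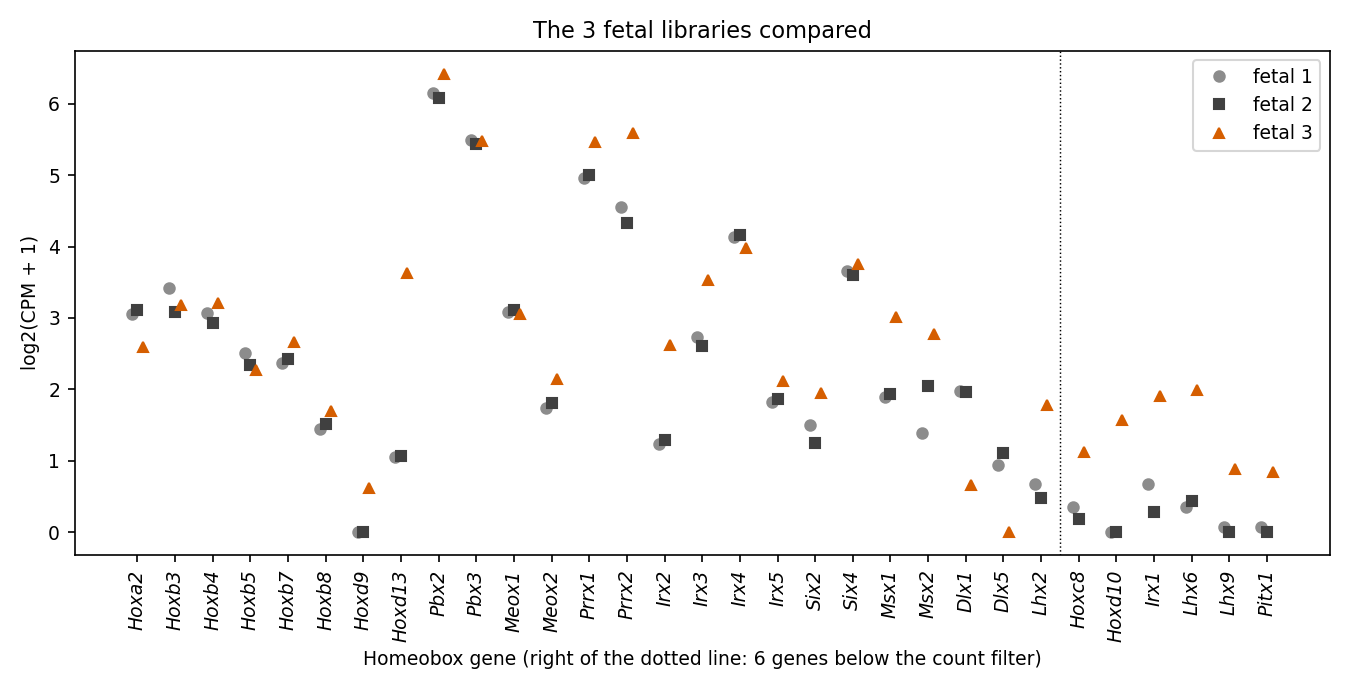
Levels of 25 of the 28 tested homeobox genes and of 6 below the count filter in the 3 fetal libraries, as log2(CPM + 1). The triangles of fetal replicate 3 lie close to the other 2 libraries for Hoxb3 to Hoxb8, Pbx3 and Irx4, and above both for Hoxd13, Prrx2, Irx2, Msx1, Lhx2 and the 6 genes to the right of the dotted line.

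The other genes below the filter reached a mean of 0.751 CPM at most (Dlx3) and 61 counts in all 9 libraries together at most (Hoxd4). Hoxd3 had 29 fetal, 7 neonatal and no adult counts, and Lhx8 had 21, 1 and 0. Dlx3 had 30 adult counts, against 2 in neonatal cells (ratio 20.5, 95% counting interval 5.21 to 177) and 10 in fetal cells, the latter in fetal replicate 3 alone. No count was found for Hoxa6, Hoxa9, Hoxa11, Hoxa13, Hoxb13, Hoxc11, Hoxc12, Hoxd1, Irx6, Lhx1, Lhx5, Msx3 and Six6. Among Hoxc genes none was tested, and Hoxc4, Hoxc5 and Hoxc8 had 18, 11 and 30 fetal counts against at most 4 at any later age.

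Other members of the Hox cofactor class split by gene. Of a list of 8 genes, the Meis, Pknox and Tgif factors and a Pbx-binding protein, 4 rose and 3 fell from fetal to adult cells. Over all tested genes 34.9% rose and 35.5% fell in that comparison. Meis1 fell, standing at 106, 115 and 117 CPM in fetal, 55.1, 61.3 and 56.1 CPM in neonatal and 39.0, 33.7 and 34.8 CPM in adult libraries (log2 fold change from fetal to adult -1.65 ± 0.08, edgeR adjusted p = 1.76e-07). Meis2 fell from 45.7 ± 1.24 to 15.6 ± 1.36 CPM (edgeR adjusted p = 4.13e-07). Meis3 rose from 16.3 ± 4.10 to 77.3 ± 11.2 CPM (edgeR adjusted p = 3.93e-06). The 3 Meis genes thus differed in direction.

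Of the Polycomb and trithorax genes that keep Hox clusters off or on, 20 of a list of 26 were in the table and were tested. From fetal to adult cells 4 rose and 11 fell, against 34.9% and 35.5% of all genes. Ezh1, a histone methyltransferase of Polycomb repressive complexes, rose from 18.1 ± 1.13 to 51.5 ± 1.22 CPM (edgeR adjusted p = 1.6e-07). Rnf2, a ubiquitin ligase of those complexes, fell from 93.2 ± 4.81 to 40.4 ± 4.61 CPM (edgeR adjusted p = 2.19e-06), and Phc1 fell from 60.8 ± 4.09 to 33.2 ± 0.973 CPM (edgeR adjusted p = 4.53e-06).

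Retinoic acid is an inducer of anterior Hox genes. Of 16 genes of its pathway 13 were tested. From fetal to adult cells 5 rose and 3 fell, against 34.9% and 35.5% of all tested genes. The synthesis gene Aldh1a1 rose from 1.24 ± 0.239 to 6.09 ± 1.28 CPM (edgeR adjusted p = 2.44e-05) and the receptor gene Rxra from 14.7 ± 0.505 to 27.1 ± 1.12 CPM (edgeR adjusted p = 7.92e-06). The receptor gene Rara fell from 62.4 ± 1.43 to 46.9 ± 4.54 CPM (edgeR adjusted p = 0.000897).

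Of 13 cofactors of the sine oculis and Lhx proteins 9 were in the table and 8 were tested. From fetal to adult cells 3 of the 8 rose and 5 fell, against 34.9% and 35.5% of all tested genes. Lmo2, a LIM-only protein of blood and endothelial cells, rose from 1.61 ± 0.176 to 43.9 ± 3.76 CPM (edgeR adjusted p = 5.95e-09), beside the higher macrophage markers of the adult libraries, whose part was not tested. Lmo4 rose from 54.9 ± 6.81 to 98.6 ± 7.4 CPM (edgeR adjusted p = 3.51e-05), and Eya4, a partner of sine oculis proteins, fell from 5.70 ± 0.817 to 1.25 ± 0.475 CPM (edgeR adjusted p = 6.14e-05).

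Of 16 genes that act upstream of or together with Msx, Dlx, Pitx and Prrx, 7 rose and 6 fell from fetal to adult cells. The shares over all tested genes were 34.9% and 35.5%. The ligand gene Bmp7 stood at 28 ± 3.53 CPM in fetal and 4.90 ± 0.569 CPM in neonatal cells and had no adult count (edgeR adjusted p = 1.93e-07 from fetal to adult). Id2, a target of BMP signalling, rose from 18.1 ± 1.88 to 102 ± 17.3 CPM (edgeR adjusted p = 2.33e-07). The heart muscle factor gene Nkx2-5 had 14.6 ± 2.60 CPM in fetal and 4.77 ± 0.975 CPM in neonatal cells and no adult count (edgeR adjusted p = 1.78e-06), in the order of the cardiomyocyte markers.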

How the data were processed

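The authors deposited raw read counts per gene for 9 libraries, made with featureCounts 1.6.3 and an rn6 gene annotation, per the file headers. The submitters' processing notes also name Trimmomatic 0.39, STAR 2.5.2b, FastQC and DESeq2. No strand or multi-mapping option is given in the headers, so counting was unstranded and reads mapped to several places were left out, that program's defaults. Exon length in bases per gene was read from the deposited count table. A deposited table of normalized signal values, counts divided by a size factor, was not needed.

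Genes passing filterByExpr (11337 of 17337) were fitted with edgeR 4.0.16 in R 4.3.3 (TMM, robust quasi-likelihood, all 9 libraries, no covariate beside age). Benjamini-Hochberg adjustment ran over the genes tested in each comparison, the threshold was 0.05, and each standard error is the absolute log2 fold change divided by the square root of F. CPM values use TMM-scaled library sizes. The floor for a fold was 3 counts over an age, and ratios on 1 to 3 counts carry exact 95% intervals that cover counting error only. The fitting steps were tested on simulated data. No 2 libraries of an age agreed within counting error by chi-square, so all 9 were counted separately. That test cannot tell separate isolations from separate preparations of 1 culture. Same-numbered libraries of different ages did not deviate together.

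Some genes of the set are counted but not reported here by name. The genes and lists were chosen with earlier results of these data known. Values are given by library for genes with a mean of at least 5 CPM at an age and for genes past the threshold in any pair whose mean reached 1 CPM. Of each related list the 3 genes with the smallest adjusted p were named; the list of genes acting with Msx, Dlx, Pitx and Prrx was not in the rule as first written and was treated alike. Alternatives were DESeq2 1.42.0, median-ratio (RLE) scaling, library size alone, no filter, only the 2 ages compared, a log2 fold change of at least 1, a replicate block, each library left out, and other CPM limits.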

Additional observations from a re-analysis of the deposited data

How the results depend on the processing

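Of 55 calls of homeobox genes over the 3 pairs of ages, 38 were kept in every alternative that gave a value, and 17 were lost in at least 1. Among the 55 are the calls of Hoxb5, Hoxb7, Hoxb8 and Hoxd13 against fetal cells and those of Hoxd9 in adult cells. The filter had built in their directions, so keeping such a call is no support for its direction. Counts of higher genes were small and moved most. From fetal to neonatal cells the 2 higher genes became 1 with library size alone and 1 with a log2 fold change of at least 1, and leaving out 1 library at a time gave 1 to 5. From neonatal to adult cells the 2 higher genes became 6 when only the 2 ages compared were fitted, and leaving out 1 library at a time gave 1 to 7. The count of lower genes stayed within 1.5 times its reported value in every alternative at all 3 pairs, as did higher genes from fetal to adult cells; without the count filter lower genes from fetal to adult cells went from 20 to 30. The direction of Irx2 from fetal to adult cells, -0.06 on the log2 scale, reversed without fetal replicate 3, and leaving out 1 library at a time gave -0.38 to 0.84; with the replicate block it was 0.17, without a call. DESeq2 gave no adjusted p for Hoxd13. At a limit of 2 CPM in place of 1 the neonatal count of expressed genes was 11 in place of 19. The numbers of replicates do not pair the libraries (correlations of deviations between same-numbered libraries from -0.06 to 0.05). With the replicate block, 14 lower and 2 higher genes were called from fetal to neonatal, 19 and 6 from fetal to adult, and 9 and 2 from neonatal to adult cells, where Hoxb5 and Hoxd9 were lost and Lhx2 was gained (adjusted p = 0.0489). The cause of these changes was not tested.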
